A study of Mus musculus with 6 samples.

Results

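Late maturation of the mouse retina was described by setting the messenger RNA library of postnatal day 28 (P28) against that of postnatal day 14 (P14), with 1 library at each age. Genes were kept where the higher of the 2 values was at least 1 RPKM (a read count scaled to the length of the gene and the size of its library), which left 13686 of the 30042 genes of the table. The difference between the ages was taken on the scale log2(RPKM + 1), which understates the change of genes near or below 1 RPKM. A gene was called higher or lower at P28 at a difference of at least 1. With 1 library per age there is no error between retinas and no test, so each difference is a value that describes these 2 libraries.

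Both libraries came from whole retinas of wild-type mice of the mixed strain 129/Sv; C57/BL6J and carried no other allele or treatment. The series holds 4 more wild-type libraries, at embryonic day 16.5 (E16.5) and at P1, P3 and P7, whose values are given as context. The labels name neither the sex of the mice nor how many were pooled, and the title of the series concerns cone loss in mice without type 3 deiodinase, an enzyme that inactivates thyroid hormone.

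By P14 a mouse retina has made all of its neurons and glia and its eyes have opened. In the following weeks rod and cone outer segments, the stacks of membrane that hold the visual pigment, reach their adult length, synapses are refined and the vessel network settles. Whole-retina RNA is dominated by rods, so genes of rarer cells contribute little to it.

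Few genes differed between the ages. The median difference was -0.07, the quartiles were -0.24 and 0.12, 8291 genes (60.6%) lay below 0 and 12093 genes (88.4%) lay within 0.5 of 0. At P28 181 genes were higher (1.32%) and 81 were lower (0.592%). The share of genes past the limit in either direction was 1.91% for this step, against 3.66% from E16.5 to P1, 6.0% from P1 to P3, 6.46% from P3 to P7 and 5.86% from P7 to P14, and neighbouring steps share a library. At the limits, Rg9mtd2 was kept with a higher value of 1.00003 RPKM and Net1 was not with 0.99955. The difference was 1.0009 for 4833408G04Rik, which was called, and 0.99975 for Chchd2, which was not.

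**Figure D1:**
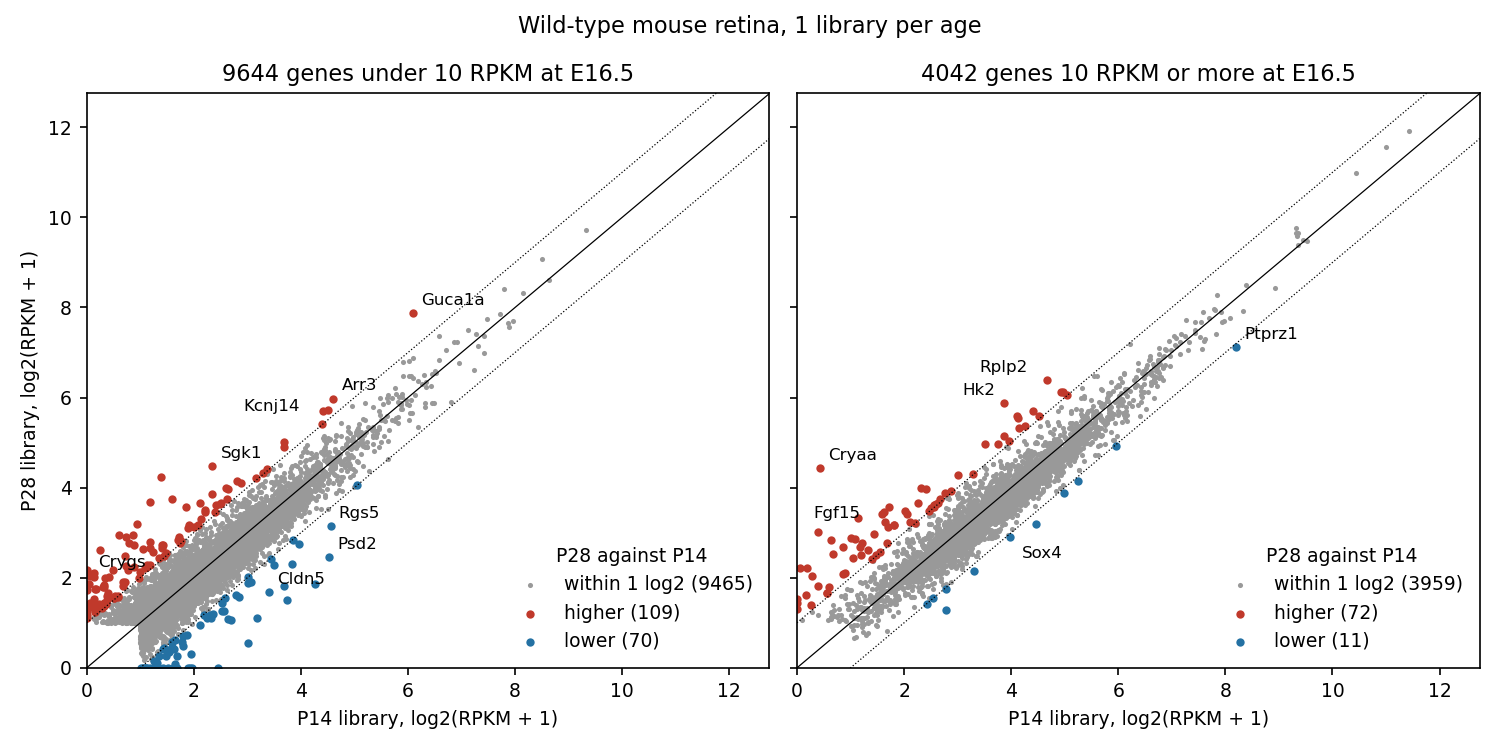
Value of each kept gene in the P28 library (vertical axis) against the P14 library (horizontal axis), both as log2(RPKM + 1), for 9644 genes under 10 RPKM at E16.5 (left) and 4042 genes at 10 RPKM or more at E16.5 (right). Dotted lines mark a difference of 1 and coloured points lie past it, with 109 higher and 70 lower on the left and 72 higher and 11 lower on the right.

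The libraries differed in ways other than age. Estimated depth was 28790000 reads at P14 and 12825000 at P28, so that 1 read in a gene of 2 kb was worth 0.0174 RPKM at P14 and 0.0390 at P28. The titles of the E16.5, P1 and P28 libraries share 1 form and those of P3, P7 and P14 another, so age and whatever the title form stands for cannot be told apart in this step. Of the kept genes 512 (3.74%) were higher in all 3 libraries of the first form than in all 3 of the second, and 1020 (7.45%) were lower. The difference also moved with transcript length: its median went from 0.26 for 58 genes under 0.5 kb and 0.07 for 602 genes of 0.5 to 1 kb to -0.14 for 3457 genes of 4 to 8 kb. Of the genes of 0.5 to 1 kb 4.82% were higher at P28, and of those of 4 to 8 kb 0.0868%. The part of depth, title form and length in the results was not tested.

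A further property of the P28 library concerned genes that are high in the embryo. Of the genes at 10 RPKM or more at E16.5, 39 had dropped below 1% of that value at P14, and all 39 were higher at P28. Choosing genes for a low P14 value favours a rise to P28. The median share of the E16.5 value was 0.457% at P14 and 2.67% at P28, with quartiles of 2.33% and 3.31% at P28. For 16 genes chosen on P7 in place of P14, the median share was 0.370% at P14 and 3.01% at P28, and all 16 were higher at P28. All of the 16 but Tsix, Cryaa and Crygb are also among the 39, so they are not a separate check. Fgf15, a growth factor of retinal progenitors, had 248 RPKM at E16.5, 1.48 at P7, 0.307 at P14 and 7.03 at P28, which is 2.84% of the E16.5 value. Atoh7, the factor that makes progenitors competent to form ganglion cells, stood at 195 RPKM at E16.5, 0.551 at P14 and 6.19 at P28, or 3.17%. Xist, the noncoding RNA that coats the inactive X chromosome, was listed at 87.4 RPKM at E16.5, 174 at P3, 0.870 at P14 and 2.06 at P28, or 2.36%. The labels do not name the sex of the mice, so sex and age cannot be told apart for Xist. Where these reads came from was not tested, and the 4042 genes at 10 RPKM or more at E16.5 are therefore described apart from the 9644 below it.

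**Figure D2:**
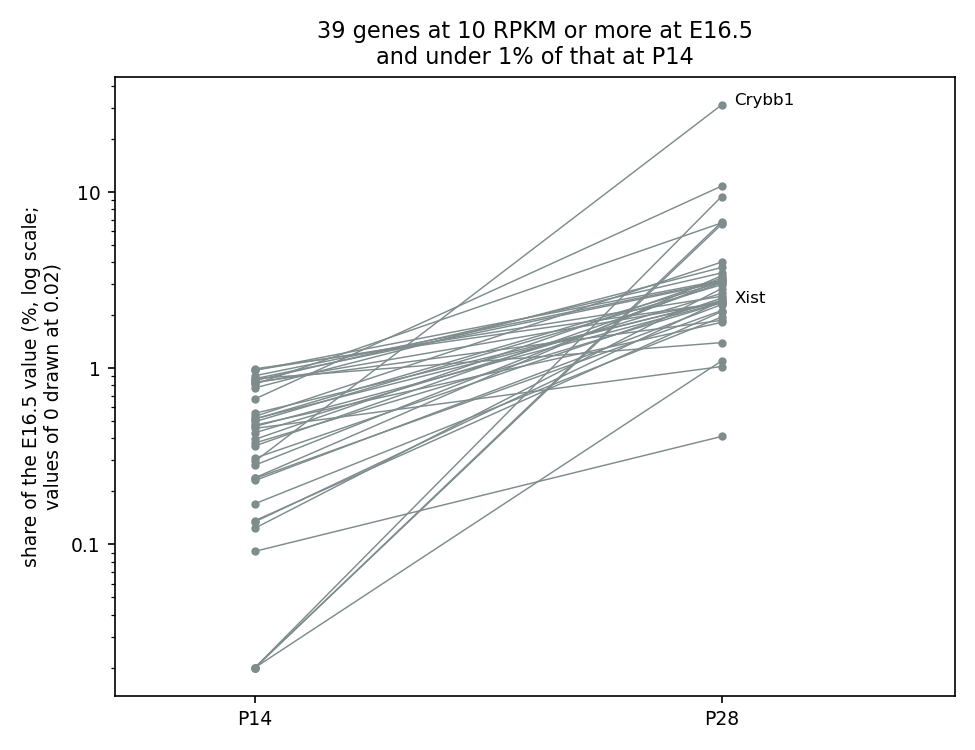
Share of the E16.5 value (percent, log scale) at P14 and P28 for the 39 genes at 10 RPKM or more at E16.5 and under 1% of that at P14, with 1 line per gene and values of 0 drawn at 0.02. Every line goes upward, from a median of 0.457% to a median of 2.67%, and the lens crystallin Crybb1 is highest at P28. The choice of a low P14 value favours this direction.

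Among the genes under 10 RPKM at E16.5, 109 were higher at P28 (1.13%) and 70 were lower (0.726%), with a median difference of -0.06. Of the 109 higher genes, 82 had their highest value of the series at P28, 42 showed the split by title form, and 66 were highest at P28 without that split. By RefSeq annotation 44 of the 109 code for protein, 17 are pseudogenes, 8 are long noncoding RNAs and 32 are not in the RefSeq table. Of the 70 lower genes, 36 were highest at P14, 26 showed the opposite split by title form, 32 code for protein and 21 are small nucleolar RNAs or other small RNAs.

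Photoreceptor genes were among the largest gains in level. Guca1a encodes a calcium sensor that switches guanylate cyclase back on after a flash, and helps both rods and cones recover. It stood at 0.95 RPKM at E16.5, at 3.86, 7.29 and 15.9 RPKM in the P1, P3 and P7 libraries, at 67.5 RPKM at P14 and at 234 RPKM at P28. The P28 value was above every other library and the difference from P14 was 1.78. As a ratio of RPKM it was 3.46 times the P14 value, with a 95% counting interval of 3.26 to 3.68. Such intervals come from estimated reads and cover counting error only, and PCR copies are not independent molecules. Guca1b, the related sensor of rods, was at 59.2 RPKM at P14 and 110 at P28, a difference of 0.89 that is short of the limit.

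Arr3, the arrestin that quenches cone opsins, was between 0.612 and 1.136 RPKM up to P3 and read 9.32 RPKM at P7, 23.4 at P14 and 61.9 at P28. The last step was a difference of 1.37 and 2.65 times the P14 value, with a counting interval of 2.42 to 2.89. Kcnj14, an inwardly rectifying potassium channel, was at most 0.296 RPKM up to P7, then at 20.2 at P14 and 51.4 at P28, a difference of 1.31. None of these 3 genes showed the split by title form, since their P14 values were above those at E16.5 and P1.

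The other genes of phototransduction differed less. Of the rod list, 14 of 14 genes were kept, 0 were called, and the median difference was 0.20 against -0.07 over all kept genes. Gnat1, the rod transducin, went from 2039 to 3046 RPKM with a difference of 0.58. It was at 16.5 RPKM at E16.5, and the median over the 11 rod genes under 10 RPKM at that age was 0.19. Of the cone list, 15 of 15 genes were kept and Arr3 alone was called, with a median of 0.08. Opn1sw, the short-wavelength cone opsin, went from 63.5 to 112 RPKM with a difference of 0.81. Gnat2, the cone transducin, went from 15.9 to 28.6 RPKM with the same difference. Opn1mw, the middle-wavelength cone opsin, was at 39.5 RPKM at P14 and 39.9 at P28, a ratio of 1.009 with a counting interval of 0.916 to 1.11.

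Genes that end the light response and build the outer segment did not move as a block. The list of response shut-off and calcium feedback had 15 of 15 genes kept, 1 called and a median of 0.15. In it Rgs9bp, the membrane anchor of the transducin inactivator Rgs9, went from 67.6 to 116 RPKM (0.77), whereas Sag, the rod arrestin, went from 235 to 188 RPKM (-0.32). Of 18 genes of outer segment structure and matrix 17 were kept, 0 were called and the median was -0.03. Rom1 and Prph2, tetraspanins of the disc rim, went from 363 to 542 RPKM (0.57) and from 638 to 848 RPKM (0.41). Rp1, a microtubule protein of the outer segment axoneme, went the other way, from 170 to 125 RPKM (-0.44). Rpgrip1, a scaffold of the connecting cilium, went from 111 to 59.2 RPKM (-0.90), a ratio of 0.533 with a counting interval of 0.515 to 0.552. Of 40 genes of ciliary transport and the transition zone, 39 were kept, 0 were called and 35 were below 0, with a median of -0.24, and 6 of the 39 were lower in all 3 libraries of the P28 title form.

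**Figure D3:**
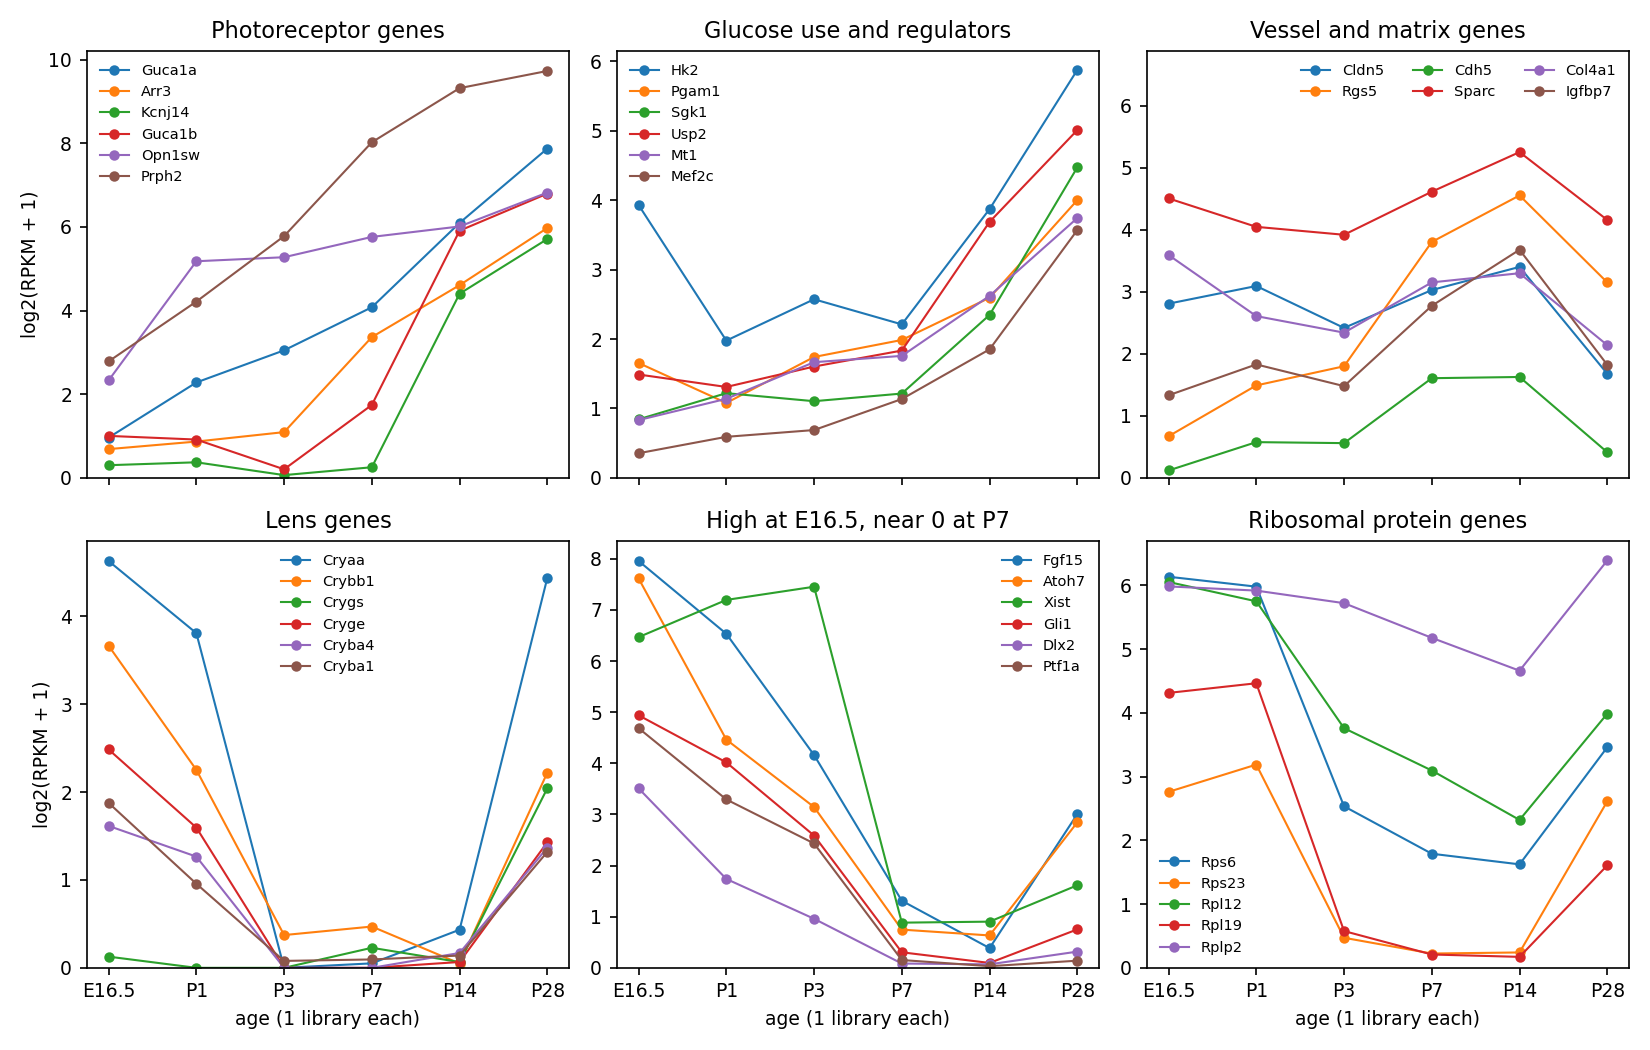
Values of selected genes in the 6 libraries in order of age (log2(RPKM + 1), 1 library per age, lines join the ages). Guca1a, Arr3, Kcnj14, Sgk1 and Usp2 are highest at P28, the vessel genes Cldn5, Rgs5 and Cdh5 peak at P14, and the lens and embryonic genes are low at P14 and higher at P28.

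Promoters are shown for 3 of the higher genes, Guca1a, the kinase gene Sgk1 and the opsin-family gene Rgr, because they hold TAATCC, a core motif of the photoreceptor factors Crx and Otx2. The sequences run from 250 bases before to 50 after a transcript start, on the coding strand, from RefSeq on GRCm38.p6, and capitals mark the motif, which reads GGATTA where it lies on the opposite strand. Sgk1 has 6 promoters, 2 of them with a match, and 1 of these 2 is shown. Arr3 has 1 promoter, without a match, and no promoter of Kcnj14 was available. The regions are chr17:47400557-47400856 on the minus strand for Guca1a, chr10:21985854-21986153 on the plus strand for Sgk1 and chr14:37048965-37049264 on the minus strand for Rgr.
Guca1a: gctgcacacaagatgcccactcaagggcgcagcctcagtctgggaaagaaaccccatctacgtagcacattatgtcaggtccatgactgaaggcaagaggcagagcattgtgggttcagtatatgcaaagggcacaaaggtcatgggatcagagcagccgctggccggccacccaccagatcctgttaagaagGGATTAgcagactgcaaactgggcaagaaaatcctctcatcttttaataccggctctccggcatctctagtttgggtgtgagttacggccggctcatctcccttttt
Sgk1: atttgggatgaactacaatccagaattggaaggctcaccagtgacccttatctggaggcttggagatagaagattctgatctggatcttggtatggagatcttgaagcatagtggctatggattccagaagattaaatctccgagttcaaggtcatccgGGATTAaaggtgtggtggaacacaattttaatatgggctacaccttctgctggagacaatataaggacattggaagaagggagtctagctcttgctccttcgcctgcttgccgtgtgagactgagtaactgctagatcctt
Rgr: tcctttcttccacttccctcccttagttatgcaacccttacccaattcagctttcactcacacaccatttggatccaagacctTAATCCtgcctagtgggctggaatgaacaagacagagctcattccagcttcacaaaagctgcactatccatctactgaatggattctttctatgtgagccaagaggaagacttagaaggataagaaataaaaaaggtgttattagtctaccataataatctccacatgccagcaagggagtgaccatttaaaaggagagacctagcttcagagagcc
The match of Guca1a starts 57 bases before the transcript start.

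Both strands were searched, and a gene counted once however many of its promoters matched. TAATCC was found in 7 of the 40 higher genes under 10 RPKM at E16.5 that have a promoter in the table (17.5%). It was in 695 of 9636 kept genes (7.21%), in 1 of 23 lower genes under 10 RPKM at E16.5 (4.35%) and in 2320 of all 32851 promoters of the table (7.06%). The other 4 higher genes were Crygs, A930041C12Rik, 4831426I19Rik and LOC100503609, and the 40 genes had 1.43 promoters each on average against 1.28 over the kept genes. TGCTGA, part of the binding site of Nrl and Maf factors, was in 11 of the 40 (27.5%) and in 18.1% of the kept genes. It was also in 7 of the 23 lower genes under 10 RPKM at E16.5 (30.4%), so it did not set the higher genes apart. CACGTG, the E-box of clock factors, was in 3 of the 40 and in 11.9% of the kept genes, TGACGTCA in 0 of the 40 and in 3.65%, and GGGCGG in 22 of the 40 and in 69.1%. A match is a string of letters in a window and was not tied to binding.

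Higher genes outside phototransduction included Sgk1, Mt1, Mt2, Ppara and Sox30. Sgk1, a kinase induced by glucocorticoids, was between 0.795 and 1.33 RPKM up to P7, at 4.09 at P14 and at 21.2 at P28. The difference of 2.13 corresponds to 5.19 times the P14 value, with a counting interval of 4.57 to 5.87. Mt1 and Mt2, the metallothioneins that bind zinc and copper, went from 5.16 to 12.4 RPKM and from 3.00 to 7.71 RPKM, each with a difference of 1.12. They were the 2 called genes of 23 kept members of the stress and heat shock list, whose median was 0.05. Hspa1a, an inducible heat shock protein of the same list, was at 2.50 RPKM at P14 and 4.87 at P28 (0.75).

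Ppara, the nuclear receptor that switches on fatty acid oxidation, was at 0.102 RPKM at P14, from about 10 reads, and at 3.31 RPKM at P28, from about 145. The difference was 1.97, and the earlier libraries lay between 0.0615 and 0.824 RPKM. Sox30, an HMG-box factor, went from 0.637 to 4.58 RPKM (1.77). Mef2c, a MADS-box factor of neurons and muscle, was named after its value was seen and went from 2.61 to 10.9 RPKM (1.72), 4.17 times with a counting interval of 3.52 to 4.94.

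Of the 25 genes of glycolysis and glucose uptake all were kept, 2 were higher and the median was 0.04. Hk2, a hexokinase that performs the first step of glucose breakdown, read 14.3 RPKM at E16.5, between 2.94 and 4.95 RPKM at P1, P3 and P7, 13.6 RPKM at P14 and 57.8 RPKM at P28. The P28 value was above all others, with a difference of 2.01 and 4.23 times the P14 value (counting interval 4.02 to 4.46). Pgam1, phosphoglycerate mutase, went from 5.04 to 15.0 RPKM (1.41). Processed copies of Pgam1 could share its reads, so its value is uncertain. Aldoa, the aldolase with the highest level of the list, was at 241 and 239 RPKM, and the lactate dehydrogenase Ldha at 104 and 87.3 RPKM. Of 47 nuclear genes of the respiratory chain 46 were kept, 1 was higher and 30 were below 0, with a median of -0.19, beside 60.6% below 0 over all kept genes. The higher gene was Cox7c, from 3.14 to 9.62 RPKM (1.36), which was at 14.6 RPKM at E16.5 and showed the split by title form. The assembly factor Ndufaf2, which is not on this list, went from 2.02 to 12.5 RPKM (2.16) and showed the same split.

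Of the circadian clock list, 22 genes were kept, 2 were higher and the median was 0.07. Usp2, a deubiquitinase with rhythmic transcripts, read 2.57 RPKM at P7, 11.9 at P14 and 31.2 at P28 (1.32). Bhlhe40, a repressor that binds E-boxes, went from 4.29 to 10.005 RPKM (1.06). Nr1d1, which encodes the clock repressor Rev-erb alpha, went from 38.5 to 62.2 RPKM (0.68), and Drd4, the dopamine receptor of photoreceptors, from 71.8 to 39.8 RPKM (-0.83). The labels give no time of day for the dissections, and with 1 library per age it cannot be told apart from age.

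Genes of the inner retina were near their P14 levels or slightly below. No gene of the ON bipolar cascade (18 kept, median -0.20), the bipolar identity list (20 kept, -0.18), the amacrine list (20 kept, -0.04) or the horizontal cell list (10 kept, -0.29) was called. Grm6, the glutamate receptor through which ON bipolar cells read photoreceptor release, went from 48.5 to 31.8 RPKM (-0.59), and Calb1, a calcium buffer of horizontal cells, from 6.25 to 3.77 RPKM (-0.61). Of the 23 genes of conventional synapses, all kept and 0 called, 19 were below 0 with a median of -0.18. The 21 genes of the photoreceptor ribbon synapse, all kept and 0 called, had a median of 0.00. Subunits of ionotropic receptors, with 24 kept and 0 called, had a median of -0.29. Of 24 kept ganglion cell genes Atoh7 alone was called, and the median was -0.18. Atoh7 reached 1 RPKM through P28 only, so the choice fixed its direction.

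Neuropeptide and growth factor genes had 18 of 25 kept, 0 called and a median of 0.07. Edn2, an endothelin released by stressed photoreceptors, came closest, with 0.0950 RPKM at P14, from about 4 reads, and 1.17 at P28, from about 22 (0.99). Vgf, a precursor of secreted peptides, went from 5.73 to 11.9 RPKM (0.94).

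Muller glia genes were centred on no difference, with 29 of 31 kept, 15 above 0, 14 below 0 and a median of 0.00. Glul, the glutamine synthetase of these cells, was at 219 RPKM at P14 and 249 at P28. The 1 called member was Crym, which encodes a cytosolic protein that binds thyroid hormone, with 38.9 RPKM at P7, 9.81 at P14 and 4.34 at P28 (-1.02). Crym was also the 1 called gene of 18 kept members of the thyroid hormone list, whose median was -0.12. Dio2, the activating deiodinase, was at 7.35 RPKM at P14 and 9.01 at P28 (0.26). Dio3, the inactivating deiodinase, was at 0.204 and 0.834 RPKM, under the limit for keeping a gene, from about 12 and 22 reads. Hr, a corepressor induced by thyroid hormone, went from 24.1 to 13.8 RPKM (-0.76).

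Vessel genes lay mostly below 0, and few passed the limit. Of 27 genes of endothelial cells and pericytes 18 were kept and 9 were under 1 RPKM at both ages. Of the 18 kept, 3 were lower, 1 was higher and 15 lay below 0, with a median of -0.55 against -0.07 over all kept genes. Since 8 of the 18 reached 1 RPKM through P14 only, these had to lie below 0, and the median over all 27 genes was -0.38. The summed level of the 27 was 128 RPKM at P14 and 83.9 at P28. In 4 of the 18 the libraries of the P28 title form were all lower, against 7.45% of all kept genes. In whole retina fewer cells of a type and less RNA per cell cannot be told apart, here or for any other cell type.

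Cldn5, the claudin of tight junctions in the blood-retina barrier, had 6.01 RPKM at E16.5, then 7.54, 4.34 and 7.16 RPKM at P1, P3 and P7, with 9.56 RPKM at P14 and 2.20 RPKM at P28. The P28 value was the lowest of the 6, with a difference of -1.72 and a ratio of 0.230 (counting interval 0.162 to 0.319). Rgs5, a G-protein regulator of pericytes, had 0.593 RPKM at E16.5, 13.0 at P7, 22.5 at P14 and 7.88 at P28 (-1.40). Cdh5, the cadherin of endothelial junctions, went from 2.09 to 0.332 RPKM (-1.21). The member that was higher, Ly6a, a surface protein of endothelium and blood progenitors, went from 0.245 RPKM (about 7 reads) to 2.48 (about 30).

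Further endothelial genes were among the 20 largest decreases without being on the list. Cd93, a receptor of endothelial cells, went from 2.86 to 0.245 RPKM (-1.63), and Aplnr, the apelin receptor of growing vessels, from 2.13 to 0.0656 RPKM (-1.56), the latter from about 227 and 3 reads. Igfbp7, a secreted binding protein abundant in vessels, was at 11.8 RPKM at P14 and 2.54 at P28 (-1.86). Eng, Sox18, Nid1 and Eltd1, chosen after their values were seen, had differences of -1.21, -1.03, -1.195 and -1.0009. Of these further genes Igfbp7 alone had 1 RPKM or more at P28. The others were kept through P14 only, so they had to lie below 0. Cd93, Aplnr, Sox18 and Nid1 were lower in all 3 libraries of the P28 title form, and Igfbp7, Eng and Eltd1 were not.

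The extracellular matrix list had a similar shift, with 22 of 32 kept, 3 lower, 18 below 0 and a median of -0.58. Its 3 called genes had 10 RPKM or more at E16.5, and the median over the 14 kept genes under that limit was -0.25. Col4a1, a collagen chain of basement membranes, went from 8.85 to 3.41 RPKM (-1.16), and Sparc, a collagen-binding protein, from 37.1 to 16.8 RPKM (-1.09). Ncan, a proteoglycan of neural matrix, was at 4.83 and 1.91 RPKM, just past the limit at -1.00004. Of 20 genes of microglia and macrophages 7 were kept, 0 were called and 6 lay below 0, with a median of -0.53 and of -0.14 over all 20. Of the 7 kept, 4 were lower in all 3 libraries of the P28 title form, Ctss among them, against 7.45% of all kept genes. Ctss, a lysosomal protease of these cells, went from 2.42 to 1.01 RPKM (-0.77), and Ptprc, the leukocyte marker CD45, was at 0.0237 and 0.00886 RPKM.

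**Figure D4:**
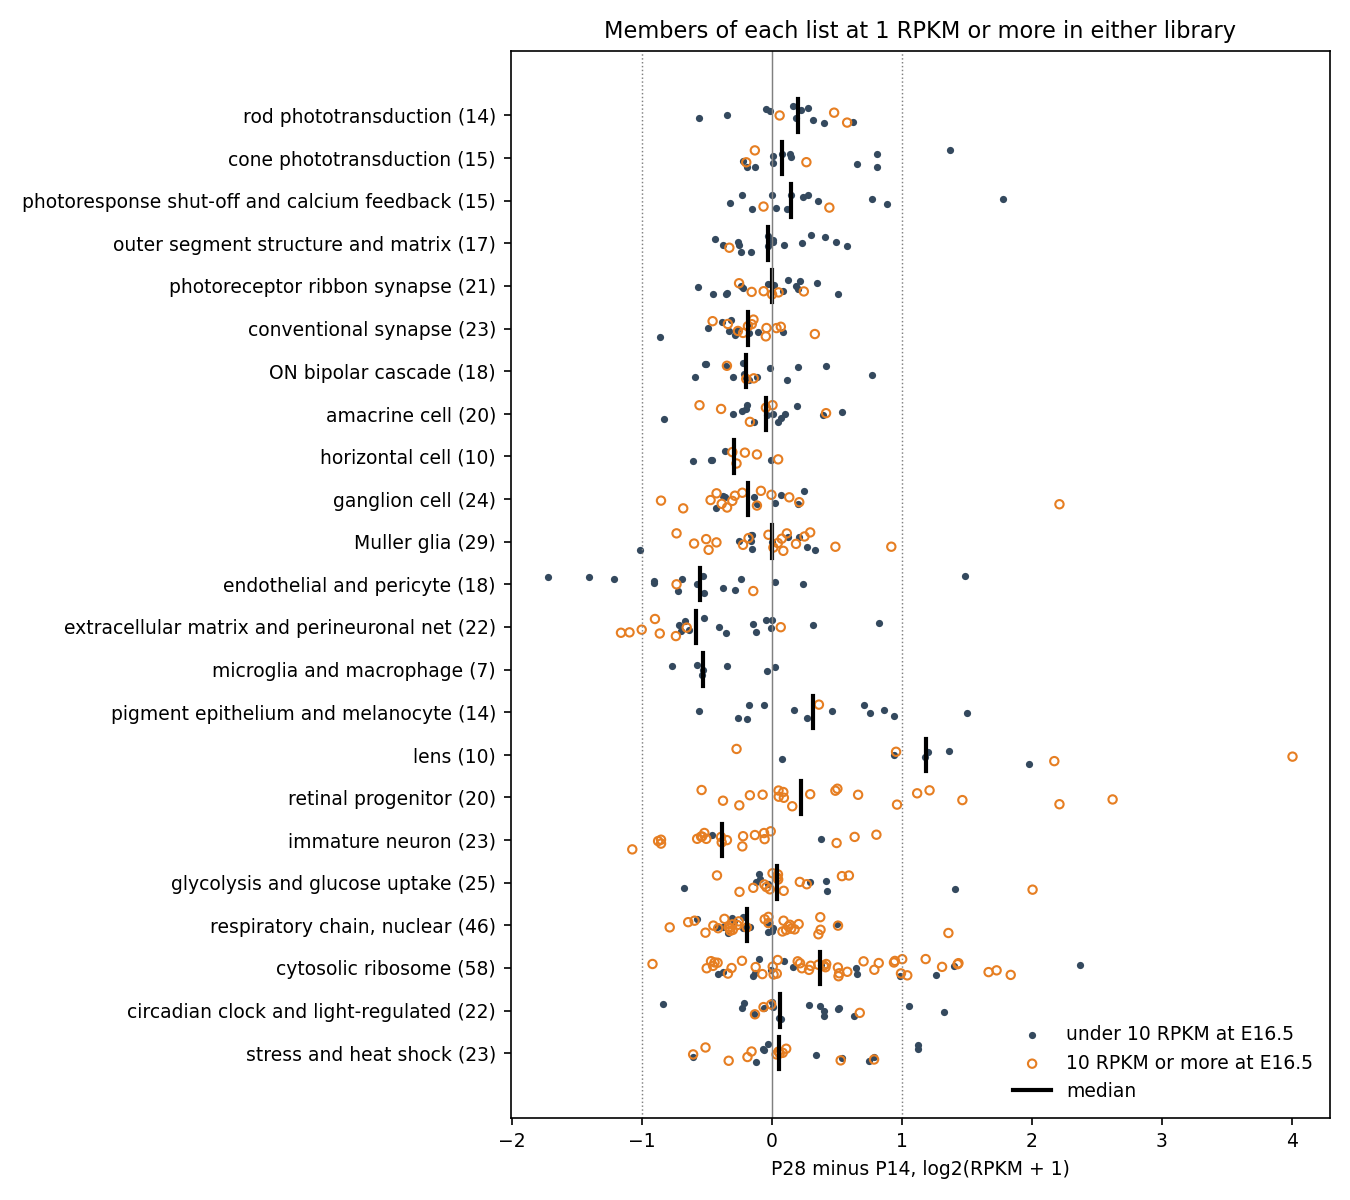
Difference between P28 and P14 (log2(RPKM + 1)) for each kept member of 23 gene lists, with filled points for genes under 10 RPKM at E16.5, open points for the others and a bar at the median of each list. Vessel, matrix and microglia genes centre below 0, the few kept lens genes above 1, and most retinal lists lie within 0.3 of 0.

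Other lower genes belong to neurons and cilia or are less well known. Psd2, an exchange factor for the GTPase Arf6, went from 21.9 to 4.51 RPKM (-2.06) and showed the split by title form. Klk1b22, a kallikrein protease of a family of near-identical genes whose reads are uncertain, went from 18.2 to 2.64 RPKM (-2.39). Npnt, a ligand of integrins, went from 13.3 to 3.95 RPKM (-1.53) and showed the same split. Kif19a, a kinesin that limits the length of cilia, had 33.8 RPKM at P7, 5.48 at P14 and 1.07 at P28 (-1.64) and did not show it. Dnmt3a, a DNA methyltransferase, and Tet1, which oxidises methylated DNA, were the 2 called of 17 kept genes of the chromatin list, at 32.3 and 15.6 RPKM (-1.01) and at 7.39 and 2.77 RPKM (-1.16). Both showed the split by title form.

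Pigment epithelium genes were more often above 0 than below. This layer lies against the photoreceptors and is peeled off when the retina is dissected. Of 20 genes 14 were kept, 1 was higher, 9 lay above 0 and the median was 0.32, with a summed level of 53.9 RPKM at P14 and 82.2 at P28. Over all 20 genes the median was 0.13. Of the 14 kept, 2 reached 1 RPKM through P28 only and 2 through P14 only, so the choice fixed their direction. Rgr, an opsin of pigment epithelium and Muller glia that helps make the visual chromophore, had 0.428 RPKM at E16.5, 0.850, 1.35 and 2.14 RPKM at P1, P3 and P7, 4.08 RPKM at P14 and 13.4 RPKM at P28. Its difference was 1.505 and its ratio 3.29 (counting interval 2.93 to 3.70). Rpe65, the isomerase that defines this layer, was at 1.37 and 3.00 RPKM (0.75), the retinol dehydrogenase Rdh5 at 2.14 and 4.71 RPKM (0.86), and Ttr, a carrier of thyroxine and retinol, at 9.29 and 18.8 RPKM (0.94). The pigment genes did not follow: Pmel was at 1.76 and 0.871 RPKM, Tyrp1 at 1.09 and 0.854 RPKM, and Mlana was listed at 0.111 RPKM at P14 and 0 at P28. Pmel and Tyrp1 were the 2 kept through P14 only. How much of these values came from pigment epithelium left on the retina was not tested.

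Several lens genes were near 0 at P14 and measurable at P28. Of 26 genes 16 were under 1 RPKM at both ages and 10 were kept, of which 6 were higher. All 6 reached 1 RPKM through P28 only, so the choice fixed their direction, and the median was 1.19 over the 10 kept genes and 0.43 over all 26. Cryaa, the alpha crystallin of lens fibres, had 23.7 RPKM at E16.5, 13.0, 0 and 0.0360 RPKM at P1, P3 and P7, 0.351 RPKM at P14 and 20.7 RPKM at P28. The difference of 4.003 was the largest of all kept genes, at 58.9 times the P14 value with a counting interval of 33.5 to 110, and P28 stood at 87.0% of the E16.5 value. Crybb1, a beta crystallin, had 11.7 RPKM at E16.5, 0.0347 at P14 (about 1 read) and 3.66 at P28 (about 41 reads). Crygs, a gamma crystallin that was at most 0.171 RPKM in the earlier libraries, went from 0.0464 to 3.12 RPKM (1.98). Of the 10 kept genes 7 showed the split by title form. Foxe3 and Pitx3, transcription factors of lens epithelium, were listed at 0 in both libraries, and the crystallin Crygd was at 0.0327 and 0.954 RPKM. Several crystallins are also expressed in retinal neurons, and whether lens tissue contributed was not tested. Defining markers of other tissues were low at P28, with 0.126 RPKM for the corneal keratin Krt12, 0.6997 for the muscle actin Acta1 and 2.09 for the myelin gene Mbp.

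Uncharacterised transcripts were among the 20 largest differences under 10 RPKM at E16.5. B230220B15Rik was between 0 and 0.360 RPKM up to P7, at 1.63 at P14 and at 17.9 at P28, a difference of 2.84 that led the genes under 10 RPKM at E16.5. A930009E08Rik went from 0.919 to 8.09 RPKM (2.24) and 5730552O08Rik from 0.0257 to 2.65 RPKM (1.83). None of the 3 is in the RefSeq table, and no source used here gives the counting strand, so reads of a neighbouring or antisense gene cannot be told apart from theirs. In the other direction the noncoding RNA A930031H19Rik, which was at most 0.0495 RPKM up to P7, went from 8.03 RPKM at P14 to 1.144 at P28 (-2.08).

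Small nucleolar RNAs, which guide the modification of ribosomal RNA, were frequent among the lower genes: 20 of 36 kept were lower and 4 were higher, against 0.592% and 1.32% of all kept genes. All of the 20 but Snora43 were kept through P14 only, so they had to lie below 0. The 4 higher ones were kept through P28 only and had to lie above 0. The choice of genes thus fixed the direction of nearly all these calls. Of the 20, 17 were listed at 0 at P28. These genes are 46 to 205 bases long, 3 reads at P28 are worth 1.72 to 3.90 RPKM in the 17, and their P14 values were 1.02 to 2.89 RPKM. Only 1 of the 17 had a P14 value above that floor, so a decrease of the others was not detectable at this depth.

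Genes at 10 RPKM or more at E16.5 were called higher in 72 cases (1.78%) and lower in 11 (0.272%), with a median of -0.09 and 62.8% below 0. Of the 72 higher genes 42 were highest at E16.5 and 23 at P1, 47 showed the split by title form, and 7 were highest at P28, among them Hk2. With 2.67% of the E16.5 value subtracted from P28, the counts in this set were 45 higher and 51 lower. The 2.67% is the median share over the 39 genes above, and values that fell below 0 were set to 0. Because P14 was left as it was, the subtraction could only lower a difference or leave it unchanged. The source of the reads was not tested. Over all kept genes that subtraction gave 150 higher and 126 lower, against 181 and 81 without it.

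Progenitor and cell cycle genes belong almost wholly to this set. Of 22 progenitor genes 20 were kept, all at 10 RPKM or more at E16.5, and 5 were higher with a median of 0.23. Of these 5, 3 reached 1 RPKM through P28 only, so the choice fixed their direction. With 2.67% of the E16.5 value subtracted from P28, 1 gene of the list was higher, 3 were lower and the median was -0.20. Besides Fgf15 and Atoh7 these included Sfrp2, a modulator of Wnt signals, with 109 RPKM at E16.5, 3.03 at P14 and 10.1 at P28 (1.47), and the cyclin Ccnd1, with 558, 5.77 and 13.7 RPKM (1.12). Under the subtraction Sfrp2 was at 1.03, Fgf15 and Atoh7 fell short of the limit at 0.13 and 0.35, and Ccnd1 was left with no signal at P28 and turned to -2.76. Fgf15 and Atoh7 are among the 39 genes that set the 2.67%, so their fall under it was favoured by that choice. Of 30 cell cycle genes 13 were kept and 2 were higher, with a median of 0.35, which the subtraction took to -0.09. The other 17 were under 1 RPKM at both ages. Both higher genes reached 1 RPKM through P28 only, so the choice fixed their direction. Over all 30 genes the median was 0.31. Mki67, a marker of dividing cells, was at 99.8 RPKM at E16.5, 0.309 at P14 and 2.50 at P28 (1.42), and after subtraction its difference was -0.39. Mki67 is also among the 39 genes that set the subtracted share. Bub1b, a spindle checkpoint kinase, was at 17.7, 0.211 and 3.12 RPKM (1.76), or 1.59 after subtraction.

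By symbol, ribosomal protein genes made up 88 of all 13686 kept genes. They were 12 of the 72 higher genes of this set, 4 of the 109 higher genes under 10 RPKM at E16.5 and 1 of the 70 lower ones. The lower one was Rps21, a protein of the small subunit, from 10.2 to 3.90 RPKM (-1.20), which is not on the list of the cytosolic ribosome. Of the 60 genes on that list 58 were kept, 12 were higher (3 of them under 10 RPKM at E16.5) and 0 were lower, with a median of 0.37. Over all kept genes 1.32% were higher. Of the 12 higher genes 4 reached 1 RPKM through P28 only, so the choice fixed their direction. With 2.67% of the E16.5 value subtracted from P28, 9 genes of the list were higher, 1 was lower and the median was 0.16. Over the 15 kept genes under 10 RPKM at E16.5 the median was 0.16. The split by title form was present in 12 of the 58, Rps6 and Rplp2 among them, against 3.74% of all kept genes. Rps6, a protein of the small subunit, had 69.2 and 62.1 RPKM at E16.5 and P1, 4.79, 2.46 and 2.08 RPKM at P3, P7 and P14, and 10.004 RPKM at P28 (1.84). Rplp2, an acidic protein of the stalk, had 62.2, 59.4, 51.7, 35.1, 24.3 and 82.8 RPKM in order of age (1.73). Of the 58 genes 17 had a difference below 0, being lower in the P28 library without passing the threshold. These genes have many processed copies, so their reads are uncertain. Of the kept genes, 32 of 136 pseudogenes (23.5%) and 6 of 90 transcribed pseudogenes (6.67%) were higher at P28, against 1.32% of all kept genes.

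Genes of immature neurons were mostly below 0. Of 23, all kept, 1 was lower and 19 lay below 0, with a median of -0.39. Subtracting 2.67% of the E16.5 value from P28, which can only lower a difference, gave 8 lower and a median of -0.83. Sox4, a factor of newborn neurons, was at 189 RPKM at E16.5, 97.2 at P7, 14.7 at P14 and 6.47 at P28 (-1.07). Nnat, an imprinted membrane protein, went from 29.1 to 15.0 RPKM (-0.92), Marcksl1, an actin-binding protein, from 37.3 to 19.9 RPKM (-0.87) and Stmn2, a tubulin-binding growth cone protein, from 15.98 to 8.41 RPKM (-0.85). The other lower genes of this set included Ptprz1, a receptor phosphatase of Muller glia that was highest at P3 (389 RPKM), with 292 RPKM at P14 and 139 at P28 (-1.07) and the split by title form, and Oxct1, the enzyme that lets cells burn ketone bodies, with 21.2 and 8.20 RPKM (-1.27). Pxdn, a peroxidase that cross-links collagen of basement membranes, went from 4.40 to 1.65 RPKM (-1.02).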

How the data were processed

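The authors deposited 1 table of RPKM values, per the file headers, for 30042 genes in 6 libraries of wild-type mouse retina, 1 per age. Per the labels' protocols, messenger RNA was purified on beads from total RNA of dissected retinas and made into cDNA libraries. The genome build was mm9 and bcl2fastq 2.17.1.14 was used, per the submitters' processing notes. The aligner, counter, annotation, strand and handling of multi-mapping reads were not given in the sources read here. RPKM moves for all genes when a few take a larger share of the reads, and the 10 highest genes held 8.10% of the summed RPKM at P14 and 10.8% at P28.

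Differences of log2(RPKM + 1) between the deposited P28 and P14 values were computed in Python 3.11.15 with pandas 2.3.3 and called at 1 or more where the higher value was at least 1 RPKM. No test was possible with 1 library per age. Depth was estimated from the steps between values under 0.3 RPKM, of which 62.2% to 68.5% were whole reads within 0.05, so no count test was run. Intervals of ratios are exact binomial (95%, scipy 1.17.1) on estimated reads, for the 11611 kept genes with a GENCODE length. Annotations came from RefSeq (GRCm38.p6) by gene ID for 12296 kept genes.

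The genes kept and the 49 lists were chosen with earlier results of these data known, and 65 genes are in more than 1 list. Genes named were the largest increases and decreases (20 each under 10 RPKM at E16.5, 10 each at or above it), the extremes and highest members of each list, the genes with the highest levels or the largest RPKM differences, those with the highest value at 1 age and under 0.1 RPKM at the other, the deiodinases and the opsins. Also named are genes with the promoter motif, genes at the limits and defining markers. Gnat2, Hspa1a, Ldha, Rdh5, Tyrp1, Cdh5, Sfrp2, Ccnd1 and Rps21 were named after their values were seen. A few genes are not reported here.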

Additional observations from a re-analysis of the deposited data

How the results depend on the processing

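No paired analysis was possible because each age has 1 library, and none could be left out. Counts are given as higher and lower genes. A pseudocount of 0.1 gave 395 and 234 (under 10 RPKM at E16.5: 295 and 213; lower at or above it: 21). A minimum of 5 RPKM gave 102 and 31 (50 and 22 under 10). A limit of 1.5 gave 56 and 20 (33 and 20 under 10, 23 and 0 at or above it). Subtracting 2.67% of the E16.5 value gave 126 lower (45 and 51 at or above 10). For lower genes high at E16.5, reported as 11, median-of-ratios rescaling gave 6, and splitting at 5 or 20 RPKM gave 24 or 7. The rescaling shifted values by 0.08 (median -0.00) and gave 233 and 77 over all genes, and scaling to the summed RPKM of all but the 50 highest genes gave 219 and 83; the 181 higher genes stayed called under both, and 70 and 75 of the 81 lower ones. Chosen after seeing the data, a minimum of 20 estimated reads gave 74 and 44 (41 and 33 under 10, 33 higher at or above it), and leaving out small nucleolar RNAs gave 176 and 60. The causes were not tested. Of the called genes named in the text, Mki67 and Ccnd1 changed sign, to -0.39 and -2.76 under the subtraction, where Fgf15 and Atoh7 lost their call at 0.13 and 0.35. Xist, not called, went from 0.71 to -0.90 there. Mki67, Fgf15, Atoh7 and Xist are among the 39 genes that set the subtracted share, so their changes were favoured by that choice. Under median-of-ratios rescaling Crym (-0.96), Dnmt3a (-0.93), Ncan (-0.96), Ptprz1 (-0.99) and Pxdn (-0.99) fell short of the limit. The medians of the vessel, matrix, microglia, immature neuron, lens, rod, cone and ribosome lists kept their sign in all 10 settings, the reported included, with a range of 0.08 to 2.94 for the lens list (0.08 at a minimum of 5 RPKM), whereas those of the visual cycle, progenitor, cell cycle, amacrine, Muller glia, glycolysis, stress and thyroid lists did not.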

Other observations

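Mitochondrial transcripts were among the highest in both libraries. COX1, a subunit of cytochrome oxidase, was at 1379 RPKM at P14 and 2018 at P28 (0.55), against 4353 at P1, and showed the split by title form. ND5 and ND6, subunits of complex I, were at 641 and 798 RPKM and at 651 and 809 RPKM; they lie on opposite strands and overlap, and without a known counting strand their reads cannot be told apart.

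Genes of the replication-dependent histone list were mostly near 0, with 23 of 28 under 1 RPKM at both ages. Hist1h2bc, which also gives a polyadenylated transcript in cells that do not divide, was at most 2.00 RPKM up to P7, at 8.82 at P14 and at 19.1 at P28 (1.03). Ptgds, a prostaglandin synthase of glia and pigment epithelium, went from 6.34 to 16.1 RPKM (1.22) and was highest at P28. Gm5450, annotated as a pseudogene of the translation factor Eif1, was at 7.11 RPKM at P14 and 0.456 at P28 (-2.48), with 0.809 RPKM at E16.5 and 8.87 at P3, and showed the split by title form. The split was also present for ND5 and ND6.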
